A study of Mus musculus with 12 samples.

Results

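Osteoclasts are the multinucleated cells of the monocyte and macrophage lineage that resorb bone, and 10 genes known from them were followed in macrophages of leukemic and healthy mouse marrow: Acp5, Ctsk, Mmp9, Ocstamp, Dcstamp, Calcr, Oscar, Tnfrsf11a, Atp6v0d2 and Nfatc1. The genes are a list of symbols, drawn up with earlier results of these data known, and all 10 were found among the 56832 entries of the count table. Of these, 8 passed the filter on low counts, as did 15758 genes in all, and Calcr and Oscar did not. The cells were bone marrow macrophages, sorted by flow cytometry as positive for CD45 and F4/80 and negative for Ly6g and Ly6c. Mice in the leukemic groups had received cells of bcCML, a model of blast-crisis chronic myeloid leukemia, and were sampled late in disease, at day 11 by the sample labels; the non-leukemic groups came from healthy mice. There were 12 RNA sequencing libraries, 3 for each sex in each condition. Strain, age, alleles and any conditioning of the hosts are not given in the sources used here, nor is a marker that would tell transplanted leukemic cells from host cells within the sorting gate. The labels do not say that replicates were separate animals or pools, and p-values therefore reflect only how libraries of a group varied.

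Osteoclast precursors form when a myeloid cell receives M-CSF (the product of Csf1) through Csf1r and RANK ligand (Tnfsf11) through the receptor RANK (Tnfrsf11a), with costimulation by immunoreceptors such as OSCAR. These signals run through TRAF6, NF-kappaB, AP-1 and calcium to NFATc1, the transcription factor that, together with PU.1 and MITF, turns on the genes of fusion, acid secretion and matrix breakdown. The fused cell seals itself to bone, pumps acid through a V-ATPase and secretes cathepsin K, and it carries the calcitonin receptor. Several of these genes are not restricted to osteoclasts: macrophages also express Acp5, neutrophils store the product of Mmp9, and activated lymphocytes express Nfatc1.

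Levels are given as CPM, the counts of a gene scaled to a fixed library total in the usual counts-per-million unit. Library totals ran from 16911827 to 30014855 counts, so that a count of 0 allows up to 3 counts, or 0.1 to 0.177 CPM, with counting error only. Female leukemic replicate 1 had 17891 genes with a count, against 19521 to 21247 in the other libraries. Male non-leukemic replicate 3 had a summed level of 10 macrophage markers of 2653 CPM, where the other non-leukemic libraries had 812 to 1123 CPM. Both libraries were kept, and results that rest on them are given with and without them. Both genes of the sorting antigens were present but differed between conditions. Adgre1, which encodes F4/80, fell from 121 ± 68.1 to 52.8 ± 12.3 CPM (SD, n = 6 each; edgeR adjusted p = 0.0129), a call kept in all 20 alternative analyses. Ptprc, which encodes CD45, rose from 347 ± 52.9 to 593 ± 222 CPM (edgeR adjusted p = 0.0238), a call kept in 18 of 20 and lost without male non-leukemic replicate 1 or 2. The genes of the set differed in how often they were detected. Calcr had no count in 10 of 12 libraries and Oscar in 7 of 12. Acp5, Ctsk, Mmp9, Ocstamp, Dcstamp, Tnfrsf11a, Atp6v0d2 and Nfatc1 had counts in all 12. These values describe genes known from osteoclasts in sorted marrow cells, and no library is described as holding osteoclasts.

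Of the 8 tested genes, 2 fell in leukemic libraries, Acp5 and Mmp9, and 0 rose (edgeR quasi-likelihood test on all 12 libraries with sex as a term, Benjamini-Hochberg adjusted p under 0.05 over all 15758 genes). Over all tested genes 17.9% were called, 9.20% as lower and 8.71% as higher. The median log2 fold change of the 8 genes was -1.06, beside -0.01 over all tested genes. Without male non-leukemic replicate 3, Calcr and Oscar also passed the filter, and the median of all 10 genes was -0.52. Without female leukemic replicate 1 as well, it was -0.27, again over 10 genes. Calcr and Oscar also passed without male non-leukemic replicate 2, female non-leukemic replicate 1 or 2, or female leukemic replicate 3. The median of the 10 genes in those fits was -1.09 to -0.72. At an unadjusted p under 0.05 the count with all 12 libraries was 4 lower and 0 higher. Over all genes 4755 of 15758 passed that threshold in either direction. Without male non-leukemic replicate 3 the count was 2 lower and 1 higher, beside 5329 of 16665 genes in either direction. Both DESeq2 and limma-voom called 2 lower and 0 higher after adjustment. Without male non-leukemic replicate 3, Nfatc1 rose, so that the count over 10 tested genes became 1 higher and 2 lower. In that fit 19.6% of tested genes were called, 9.67% as higher and 9.94% as lower. Without female leukemic replicate 1 as well the count was again 1 higher and 2 lower, beside 28.9% called, 14.9% as higher and 14.1% as lower. In bulk samples such as these, fewer cells of a type and less RNA per cell cannot be told apart.

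**Figure D1:**
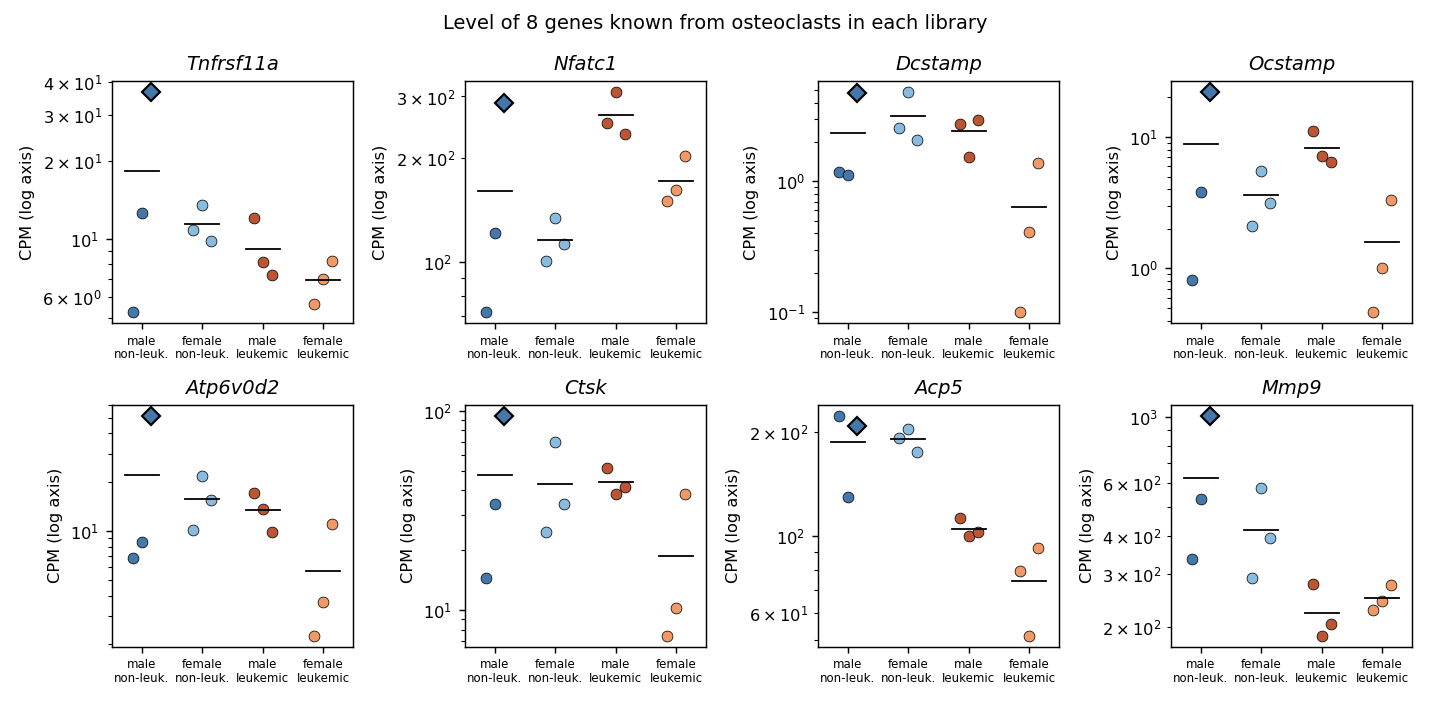
Level of each of the 8 tested genes in CPM (log axis, a separate scale for each gene) in the 12 libraries, by sex and condition. Points are libraries, lines are group means, and the diamond is male non-leukemic replicate 3, which was the highest of all 12 for Ctsk, Mmp9, Ocstamp, Tnfrsf11a and Atp6v0d2. Acp5 and Mmp9 show no overlap between the 6 non-leukemic and the 6 leukemic libraries.

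Acp5 encodes tartrate-resistant acid phosphatase, the enzyme stained to identify osteoclasts, which macrophages also make. Its level was 223, 129.6 and 208 CPM in male non-leukemic, 192, 204 and 175 CPM in female non-leukemic, 112, 99.9 and 103 CPM in male leukemic and 79.2, 51.6 and 92.4 CPM in female leukemic libraries. Every leukemic library lay below every non-leukemic one, which was true of 3.63% of tested genes in this direction. The mean went from 188 ± 33.0 to 89.8 ± 21.8 CPM (SD, n = 6 each), and the log2 fold change was -1.16 ± 0.18 (SE; edgeR adjusted p = 0.000811). Acp5 kept this call in all 20 alternative analyses, with log2 fold changes from -1.28 to -1.01. Of the 10 genes, Acp5 was the only one with exon bases shared with another gene in GENCODE M21: 137 bases lie opposite 6530413G14Rik, which had 11 counts in the 12 libraries together.

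The summed level of the 10 macrophage markers moved with Acp5. That sum was 812 to 2653 CPM in non-leukemic and 327 to 694 CPM in leukemic libraries, 7 of the 10 markers fell and 0 rose, the median of their log2 fold changes was -1.33, and none was at 0 in either condition. Cd163, a haemoglobin scavenger receptor of tissue macrophages, fell from 37.0 ± 15.2 to 8.46 ± 3.77 CPM, and Mrc1, the mannose receptor, from 61.2 ± 27.1 to 16.7 ± 7.48 CPM (SD, n = 6 each). Vcam1 and Cd5l, both made by resident macrophages, had log2 fold changes of -1.40 and -1.60 and fell as well. Per 1000 CPM of the marker sum, a ratio chosen after the values were seen, Acp5 stood at 78.4 to 259 with a median of 189 in non-leukemic and at 136 to 162 with a median of 158 in leukemic libraries, so that the conditions overlapped. The lowest of these ratios, 78.4, came from male non-leukemic replicate 3, and the non-leukemic median lay above every leukemic ratio. In that library, whose marker sum was the highest, Acp5 was 1.09 times the median of the other non-leukemic libraries. The part of the other macrophage markers' change in the Acp5 result was not tested.

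Mmp9 encodes gelatinase B, which osteoclasts use on bone collagen and which neutrophils store in granules. Its level was 335, 533 and 1007 CPM in male non-leukemic, 289.6, 577 and 394 CPM in female non-leukemic, 277, 187 and 204 CPM in male leukemic and 227, 243 and 276 CPM in female leukemic libraries. The 6 leukemic libraries all lay below the 6 non-leukemic ones, and male non-leukemic replicate 3 was the highest. The mean went from 522 ± 262 to 235.5 ± 37.0 CPM (SD, n = 6 each), with a log2 fold change of -1.21 ± 0.29 (SE; edgeR adjusted p = 0.0115). All 20 alternatives kept the call, with log2 fold changes from -1.34 to -0.89 and adjusted p up to 0.0396.

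Neutrophil markers moved with Mmp9, although the gate was set against Ly6g. Their summed level over 14 genes was 29253 to 67879.9 CPM in non-leukemic and 13446 to 28826 CPM in leukemic libraries; 7 of the 14 fell, 0 rose, the median log2 fold change was -1.12 and none was at 0. In males 10 of the 14 fell and 0 rose, with a median of -1.89, and in females 1 fell and 1 rose, with a median of -0.35; the difference between the sexes passed for 0 of the 14. Ltf, which encodes lactoferrin of neutrophil granules, fell from 5395 ± 1729 to 1536 ± 297 CPM (SD, n = 6 each). Mmp8, the neutrophil collagenase, fell from 321 ± 164 to 144 ± 48.1 CPM, a call that was lost in 9 of 20 alternatives. Camp, Ngp and S100a9, further granule and calcium-binding protein genes of neutrophils, had log2 fold changes of -1.85, -1.85 and -1.75 and fell as well. Per 1000 CPM of the neutrophil sum, a ratio chosen after the values were seen, Mmp9 was at 9.46 to 14.8 with a median of 11.8 in non-leukemic and at 7.87 to 16.7 with a median of 13.0 in leukemic libraries. The conditions overlapped in that ratio, and the part of neutrophil transcripts in the Mmp9 result was not tested.

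Nfatc1 encodes the transcription factor at the head of the osteoclast programme and was the only tested gene of the set with a positive log2 fold change. Its level was 71.8, 121 and 287 CPM in male non-leukemic, 101, 134 and 113 CPM in female non-leukemic, 251, 309 and 234 CPM in male leukemic and 149.5, 161 and 202 CPM in female leukemic libraries. Male non-leukemic replicate 3 lay among the male leukemic values, and the 6 leukemic libraries were all above the 5 other non-leukemic ones, a pattern that 6.64% of tested genes shared. With all 12 libraries the means were 138 ± 75.9 and 218 ± 59.6 CPM (SD, n = 6 each) and the log2 fold change of 0.55 ± 0.27 (SE) did not pass (edgeR adjusted p = 0.193). Without that library it was 0.90 ± 0.19 and passed (edgeR adjusted p = 0.00595), and without female leukemic replicate 1 as well it was 0.99 ± 0.20 (edgeR adjusted p = 0.00311). None of the 18 other alternatives called it.

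T and NK cell markers stood beside the Nfatc1 values. Their summed level over 13 genes was 312 to 603 CPM in non-leukemic and 1322 to 2685 CPM in leukemic libraries, and all 13 rose, with a median log2 fold change of 2.86. Cd3e, a chain of the T cell receptor complex, rose from 8.72 ± 3.82 to 104 ± 48.2 CPM and Trac, the constant region of the T cell receptor alpha chain, from 17.4 ± 7.88 to 218 ± 90.1 CPM (SD, n = 6 each). Male non-leukemic replicate 3 had a T and NK cell sum of 603 CPM, the highest non-leukemic sum but below every leukemic one, while its Nfatc1 was 2.54 times the median of the other non-leukemic libraries. The cells were gated for F4/80, yet these markers were present in both conditions. The part of these markers in the Nfatc1 result was not tested.

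**Figure D2:**
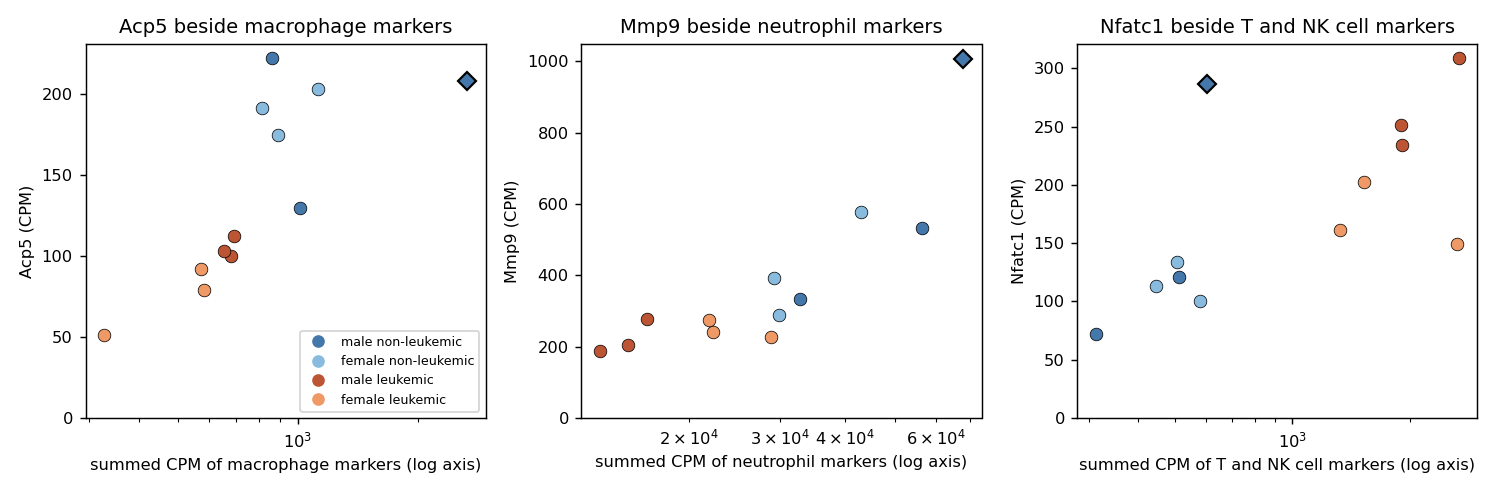
Each panel plots 1 gene (vertical axis, CPM) against the summed level of a marker list (horizontal log axis, CPM) over the 12 libraries: Acp5 with 10 macrophage markers, Mmp9 with 14 neutrophil markers and Nfatc1 with 13 T and NK cell markers. The diamond is male non-leukemic replicate 3, which has the highest macrophage sum, 2653 CPM, and the highest Mmp9, 1007 CPM, and whose Nfatc1 of 287 CPM lies far above that of the other non-leukemic libraries.

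Tnfrsf11a encodes RANK, the receptor through which RANK ligand starts osteoclast formation. It was at 5.26, 12.6 and 36.7 CPM in male non-leukemic, 10.9, 13.5 and 9.85 CPM in female non-leukemic, 12.01, 8.20 and 7.28 CPM in male leukemic and 5.63, 7.003 and 8.25 CPM in female leukemic libraries. The highest and the lowest of the 12 values both came from male non-leukemic libraries, and the conditions overlapped. The log2 fold change was -0.95 ± 0.38 (SE) and did not pass (edgeR adjusted p = 0.106). It passed in 1 of 20 alternatives, without male non-leukemic replicate 1 (log2 fold change -1.11, edgeR adjusted p = 0.0347), and was -0.44 without male non-leukemic replicate 3.

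Oscar, the immunoreceptor that binds collagen and costimulates osteoclast precursors, did not pass the filter with all 12 libraries. It passed the filter without male non-leukemic replicate 3, as in some other fits that left out 1 library, and was not called there. Male leukemic libraries had 10, 28 and 11 counts of it, and the other 9 libraries had 8 counts together, 6 of them in female non-leukemic replicate 2 and 2 in male non-leukemic replicate 3. The male leukemic libraries were at 0.35 to 1.05 CPM, where a count of 0 allows 0.105 to 0.113 CPM. Female non-leukemic replicate 2 was at 0.30 CPM, where a count of 0 allows 0.15 CPM. Calcr, the calcitonin receptor of mature osteoclasts, had 16 counts in male non-leukemic replicate 1, 14 in male leukemic replicate 2 and 0 in the other 10 libraries, so no difference was detectable at this depth.

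The promoters of these genes are the part of the genome where NFATc1, PU.1 and MITF are known to act, and 3 windows are shown because they hold most of the matches to the cores of those factors. A RefSeq table of the GRCm38.p6 build held starts for 5 of the 10 genes (Acp5, Calcr, Ctsk, Oscar and Tnfrsf11a), 8 windows in all. The 250 bases before each start were searched on both strands for GGAAA (NFAT core), GAGGAA (PU.1 core), TCATGTG (the M-box bound by MITF) and TGANTCA (AP-1), where NFAT and PU.1 letters can overlap. Each window is printed in the direction of transcription, with matches on either strand in capitals. The windows are the third of 3 annotated Acp5 starts, chr9:22130599-22130848 on the minus strand, of which 10 bases are exonic in GENCODE M21; Ctsk, chr3:95498960-95499209 on the plus strand; and Oscar, chr7:3616158-3616407 on the minus strand, the latter pair without exonic bases.
Acp5: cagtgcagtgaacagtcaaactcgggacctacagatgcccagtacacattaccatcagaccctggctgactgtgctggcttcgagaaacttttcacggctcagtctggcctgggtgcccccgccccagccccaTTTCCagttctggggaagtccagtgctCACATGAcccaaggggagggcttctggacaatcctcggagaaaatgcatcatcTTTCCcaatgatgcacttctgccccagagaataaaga
Ctsk: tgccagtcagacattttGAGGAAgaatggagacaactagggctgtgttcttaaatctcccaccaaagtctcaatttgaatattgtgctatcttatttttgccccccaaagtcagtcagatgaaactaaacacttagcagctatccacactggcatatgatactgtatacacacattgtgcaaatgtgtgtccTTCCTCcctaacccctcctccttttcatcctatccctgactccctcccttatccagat
Oscar: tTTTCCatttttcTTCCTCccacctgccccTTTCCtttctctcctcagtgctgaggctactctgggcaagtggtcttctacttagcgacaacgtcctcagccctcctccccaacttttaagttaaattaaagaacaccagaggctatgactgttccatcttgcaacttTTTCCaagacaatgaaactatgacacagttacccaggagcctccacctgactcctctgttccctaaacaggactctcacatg

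The Acp5 window held 2 NFAT cores, both read as TTTCC on the printed strand, and 1 M-box, read as CACATGA, 90 bases before the start. The other 2 Acp5 windows held 1 NFAT core each. The Ctsk window held 2 PU.1 cores and the Oscar window 3 NFAT cores and 1 PU.1 core. The Tnfrsf11a window held none of the 4 motifs, and AP-1 had no match in any of the 8 windows. Over all 32851 windows of that length in the table, 55.6% held the NFAT core, 23.3% the PU.1 core, 6.75% the AP-1 motif and 3.25% the M-box. These matches describe the letters of the windows only.

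Dcstamp and Ocstamp encode the membrane proteins that precursors need to fuse. Dcstamp was at 1.18, 1.12 and 4.73 CPM in male non-leukemic, 2.58, 4.84 and 2.07 CPM in female non-leukemic, 2.77, 1.54 and 2.94 CPM in male leukemic and 0.10, 0.41 and 1.38 CPM in female leukemic libraries. The female leukemic values rest on 3, 11 and 31 counts, and the conditions overlapped. The log2 fold change over both sexes was -1.24 ± 0.68 (SE; edgeR adjusted p = 0.249). Within females it was -2.37 ± 0.87 and did not pass (edgeR adjusted p = 0.119), while DESeq2 called it (adjusted p = 0.0395).

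Ocstamp was at 0.82, 3.78 and 22.0 CPM in male non-leukemic, 2.11, 5.54 and 3.12 CPM in female non-leukemic, 11.1, 7.11 and 6.48 CPM in male leukemic and 0.47, 1.01 and 3.30 CPM in female leukemic libraries. Male non-leukemic replicate 3 was 7.06 times the median of the other non-leukemic libraries, the largest such ratio in the set, and the conditions overlapped. The log2 fold change was -0.76 ± 0.67 (SE; edgeR adjusted p = 0.498). It was 0.06 with limma-voom and 0.50 without male non-leukemic replicate 3 and female leukemic replicate 1, so no direction is given.

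Atp6v0d2 encodes the osteoclast form of a V-ATPase subunit, part of the pump that acidifies the resorption pit. It was at 6.84, 8.57 and 51.5 CPM in male non-leukemic, 10.1, 21.8 and 15.6 CPM in female non-leukemic, 17.2, 13.6 and 9.80 CPM in male leukemic and 2.27, 3.63 and 11.0 CPM in female leukemic libraries. The conditions overlapped, with the top value in male non-leukemic replicate 3 and the bottom ones in female leukemic replicates 1 and 2. The log2 fold change was -1.22 ± 0.52 (SE; edgeR adjusted p = 0.132), and -0.60 without that male library.

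Ctsk encodes cathepsin K, the collagen-degrading protease of osteoclasts. It was at 14.5, 34.1 and 94.6 CPM in male non-leukemic, 24.7, 69.6 and 34.0 CPM in female non-leukemic, 51.7, 38.2 and 41.5 CPM in male leukemic and 7.46, 10.3 and 38.4 CPM in female leukemic libraries. The conditions overlapped widely: 4 leukemic libraries lay within the non-leukemic range, and female leukemic replicates 1 and 2 lay below it. The log2 fold change was -0.77 ± 0.50 (SE; edgeR adjusted p = 0.332). Without male non-leukemic replicate 3 and female leukemic replicate 1 it was -0.04.

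**Figure D3:**
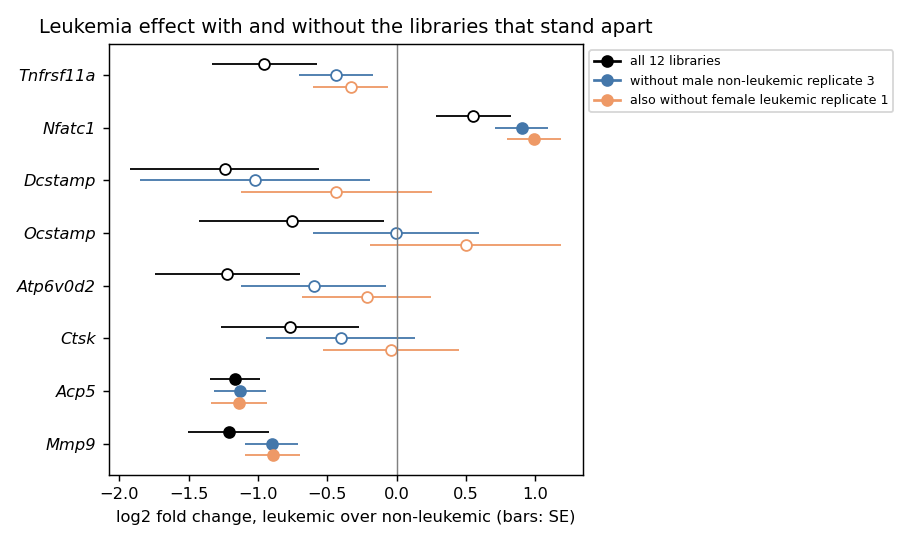
Log2 fold change of leukemic over non-leukemic libraries with its SE for the 8 tested genes, from the fit of all 12 libraries, without male non-leukemic replicate 3, and also without female leukemic replicate 1; filled points passed an edgeR adjusted p of 0.05. Acp5 and Mmp9 pass in all 3 fits, Nfatc1 goes from 0.55 to 0.90 and 0.99 and passes in the latter fits, and Ocstamp goes from -0.76 to 0.50.

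Male non-leukemic replicate 3 held the highest of the 12 values for 5 of the 10 genes, where 9.39% of all tested genes were highest in it. Relative to the median of the other non-leukemic libraries it was 7.06 times as high for Ocstamp, 5.08 for Atp6v0d2, 3.38 for Tnfrsf11a, 2.78 for Ctsk, 2.56 for Mmp9, 2.54 for Nfatc1 and 2.29 for Dcstamp. Over all tested genes the median of this ratio was 0.911. This library also had the highest non-leukemic sums of macrophage, neutrophil, dendritic cell and T and NK cell markers. Its summed level of osteoblast and stroma markers was 634 CPM, the highest of the non-leukemic libraries, whose lowest was 69.6 CPM. The cells were gated for CD45, yet these markers were present, and the part of these markers in the levels of the set was not tested.

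Likeness across libraries was measured against Ctsk and against Acp5. After subtracting the mean of each of the 4 groups, Pearson's r of log2 CPM with Ctsk over the 12 libraries was 0.96 for Ocstamp, 0.93 for Atp6v0d2, 0.88 for Dcstamp, 0.85 for Mmp9, 0.82 for Nfatc1 and 0.81 for Tnfrsf11a, but 0.27 for Acp5. Without male non-leukemic replicate 3 (11 libraries) the values were 0.96, 0.92, 0.82, 0.75, 0.76, 0.70 and 0.14 in the same order. The genes outside the set most like Ctsk by this measure, among 9315 compared, were Pcnx, Ckap4, Il10rb, Klhl25 and Atp2b1, with r from 0.94 to 0.97. Those most like Acp5 were Igkv3-4, Phf13, Haao, Slc49a4 and Nxpe4, with r from 0.85 to 0.89. All of these values come from the same libraries, which also share depth and cell composition, and they are given as a description.

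Per kilobase of exon, which allows levels to be compared between genes, Mmp9 and Acp5 were the most abundant of the set in both conditions. In non-leukemic libraries Mmp9 was at 147.6 ± 74.1 and Acp5 at 92.8 ± 16.3 CPM per kb, followed by Ctsk at 29.9, Nfatc1 at 18.5, Atp6v0d2 at 7.02, Tnfrsf11a at 2.47, Ocstamp at 1.70 and Dcstamp at 1.03 CPM per kb (means, n = 6; SD where given). Acp5, at 63.8 CPM per kb or more, lay above every non-leukemic value of Ctsk, while the ranges of all other neighbours among these 8 genes overlapped. In leukemic libraries Nfatc1, at 29.2 CPM per kb, stood before Ctsk, at 20.7 CPM per kb, and the other 6 genes stood in the same order of means. That order rested in part on the libraries that stood apart: without male non-leukemic replicate 3, Ocstamp (0.84 CPM per kb) came after Dcstamp (0.885 CPM per kb) in non-leukemic libraries, and without female leukemic replicate 1, Ocstamp (1.58 CPM per kb) came before Tnfrsf11a (1.43 CPM per kb) in leukemic ones.

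Within each sex the same test was read from a model of the 4 groups. In males Acp5 and Mmp9 fell, 2 of 8 genes where 4.04% of all tested genes were lower and 7.37% were called in either direction, and 0 rose, where 3.34% were higher. In females 1 gene, Acp5, fell, where 4.59% were lower and 8.43% were called in all, and 0 rose, where 3.84% were higher. The log2 fold change of Acp5 was -0.99 ± 0.26 in males (SE; edgeR adjusted p = 0.0366) and -1.34 ± 0.26 in females (edgeR adjusted p = 0.00906). The male call was kept in 11 of 20 alternatives and lost without any 1 of the male leukemic libraries, any 1 of the female non-leukemic libraries, or male non-leukemic replicate 1 or 3 (adjusted p up to 0.142), and without both libraries that stood apart (adjusted p = 0.0519). For Mmp9 the values were -1.67 ± 0.38 in males (edgeR adjusted p = 0.0208) and -0.76 ± 0.37 in females (edgeR adjusted p = 0.248), and the male call was lost without male leukemic replicate 2 (adjusted p = 0.104), without male leukemic replicate 3 (adjusted p = 0.102) and in a fit of the male libraries alone (adjusted p = 0.0518). Without 1 library the Mmp9 log2 fold change ran from -1.96 to -1.07 in males and from -0.93 to -0.45 in females. The neutrophil markers, given above with Mmp9, had medians of -1.89 in males and -0.35 in females beside it, with all 12 libraries.

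The difference between the sexes was tested itself, as an interaction of sex and leukemia, and passed for 0 of the 8 genes and for 0 of 15758 genes in all (0% called; 925 genes at an unadjusted p under 0.05; 23 with DESeq2 and 0 with limma-voom). Of the 8 genes, 0 had an unadjusted p under 0.05. The interaction was 0.91 ± 0.52 for Mmp9 (log2, female minus male; edgeR adjusted p = 0.824) and -2.22 ± 1.18 for Dcstamp (edgeR adjusted p = 0.82). Without 1 library the interaction ran from 0.31 to 1.25 for Mmp9 and from -3.46 to -1.71 for Dcstamp. Within the leukemic condition, every male library was above every female one for Acp5, Ocstamp, Dcstamp and Nfatc1 among the 8 genes. This pattern was shared by 15.0% of all tested genes. Oscar showed it too, with 0 counts in the female leukemic libraries, but did not pass the filter on which that share rests.

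Genes upstream of the set were read from the same fit across all genes, in which 8.71% of tested genes rose and 9.20% fell; the counts of this and the following lists are to be read against those shares. Of 24 genes of RANK and costimulatory signalling, 2 rose and 0 fell, and their median log2 fold change was 0.05; without male non-leukemic replicate 3, 4 rose and 0 fell. With all libraries, 2 of 24 was near the share over all genes. Tec, a kinase that links RANK to costimulation, rose from 29.6 ± 4.65 to 59.0 ± 20.8 CPM (SD, n = 6 each; edgeR adjusted p = 0.00825), and Camk4, a calcium-dependent kinase, from 0.777 ± 0.581 to 7.26 ± 5.14 CPM (edgeR adjusted p = 0.018), a call lost without male non-leukemic replicate 1 (edgeR adjusted p = 0.0569). Traf6, the adaptor of RANK, was at 55.1 ± 11.9 and 59.3 ± 10.1 CPM, with a log2 fold change of 0.05 ± 0.15 (edgeR adjusted p = 0.864).

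Among 15 osteoclast transcription factors 4 rose and 0 fell, and the median log2 fold change was -0.12 (without a sex term, 2 rose). The 4 were all members of AP-1, the dimeric factor of Fos and Jun proteins: Fos rose by 1.08 ± 0.15, Jun by 1.15 ± 0.25, Junb by 0.58 ± 0.15 and Jund by 0.46 ± 0.14 on the log2 scale (SE; edgeR adjusted p = 0.000355, 0.00762, 0.0175 and 0.0399). Junb was not called without the sex term, and Jund was lost in 8 of 20 alternatives.

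Genes that restrain osteoclast formation went both ways. Of 12 tested, 4 rose and 2 fell, and their median log2 fold change was 0.36; 6 rose and 1 fell without male non-leukemic replicate 3, and over the 12 fits without 1 library the number that rose ran from 2 to 6. Tnfaip3, which encodes the NF-kappaB inhibitor A20, rose from 38.8 ± 20.3 to 154 ± 113 CPM, and Nfkbia, the inhibitor IkappaB alpha, from 232 ± 44.9 to 376 ± 96.0 CPM (SD, n = 6 each; edgeR adjusted p = 0.00195 and 0.0145). Cyld, a deubiquitinase that acts on TRAF6, rose by 0.36 ± 0.10 on the log2 scale (edgeR adjusted p = 0.0285), a call lost in 8 of 20 alternatives. Irf8, a myeloid transcription factor that restrains osteoclast formation, was at 278 ± 44.0 and 393 ± 114 CPM, with a log2 fold change of 0.37 ± 0.15 that did not pass (edgeR adjusted p = 0.112).

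Of 14 tested growth factors and cytokines of osteoclast formation, 6 rose and 1 fell, and their median log2 fold change was 0.83. Csf1, which encodes M-CSF, rose from 26.6 ± 4.89 to 91.3 ± 34.3 CPM and Tnfsf11, which encodes RANK ligand, from 1.41 ± 0.596 to 5.35 ± 3.56 CPM (SD, n = 6 each; edgeR adjusted p = 0.0002 and 0.0207). The Tnfsf11 call was lost without female leukemic replicate 3 (edgeR adjusted p = 0.0591). Ifng, which encodes interferon gamma, an inhibitor of osteoclast formation made by T and NK cells, rose from 2.50 ± 1.01 to 24.5 ± 12.7 CPM, and Il6 from 2.69 ± 1.03 to 11.8 ± 3.66 CPM (edgeR adjusted p = 0.000226 and 0.00096). T cells are also a known source of RANK ligand, and the T and NK cell marker sum given above was higher beside Ifng and Tnfsf11; its part in their values was not tested. Csf1r, the M-CSF receptor and itself one of the macrophage markers, fell by 1.03 ± 0.29 on the log2 scale (SE; edgeR adjusted p = 0.0268), a call lost in 6 of 20 alternatives. Tnfrsf11b, the decoy receptor osteoprotegerin, had 3 counts over the 6 non-leukemic libraries and 1 over the 6 leukemic ones and was not tested.

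Of 26 genes of acid secretion and bone resorption, 6 fell and 0 rose, and the median log2 fold change was -0.19. This count depended on single libraries. Without male leukemic replicate 2, 2 fell, in a fit that called 1030 of 16293 genes lower. Without female leukemic replicate 1, 10 fell, in a fit that called 1952 of 16240 genes lower. Car2, carbonic anhydrase II, which supplies protons to the osteoclast pump and is abundant in erythroid cells, fell from 4619 ± 1533 to 921 ± 189 CPM (SD, n = 6 each; edgeR adjusted p = 4.6e-05). All 10 erythroid markers fell beside it, with a median log2 fold change of -4.31. Their sum was 14765 to 19258 CPM in non-leukemic and 720.0 to 1429 CPM in leukemic libraries. Erythroid transcripts were thus present in cells gated for F4/80, and the part of these markers in the Car2 value was not tested. Mmp14, a membrane-bound collagenase, fell by 1.18 ± 0.27 (SE; edgeR adjusted p = 0.00811) on the log2 scale. Ctsb, the lysosomal cathepsin B, fell by 0.69 ± 0.18 (edgeR adjusted p = 0.0192; 0.054 without male leukemic replicate 2) and the pump subunit gene Atp6v1e1 by 0.54 ± 0.14 (edgeR adjusted p = 0.0198), a call lost in 5 of 20 alternatives. Tcirg1, which encodes the pump subunit that carries protons in osteoclasts, was at 87.5 ± 27.1 and 86.3 ± 5.30 CPM (edgeR adjusted p = 0.798).

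Of 16 tested genes of adhesion, sealing zone and fusion, 3 rose and 1 fell, and their median log2 fold change was -0.03; without male non-leukemic replicate 3 the count was 3 and 3, and without female leukemic replicate 1 as well it was 7 and 3. Spp1, which encodes osteopontin, the bone matrix ligand of osteoclast integrins, rose from 24.4 ± 11.3 to 78.3 ± 17.4 CPM, and Cd200, a surface protein that promotes osteoclast fusion, from 6.22 ± 2.78 to 20.8 ± 6.17 CPM (SD, n = 6 each; edgeR adjusted p = 0.00225 and 0.00511). Itgb3, the integrin subunit of the sealing zone, rose by 0.81 ± 0.24 and Sirpa, a receptor in macrophage fusion, fell by 0.80 ± 0.24 on the log2 scale (SE; edgeR adjusted p = 0.0354 and 0.0341). These calls were lost in 8 and 7 of 20 alternatives.

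In the calcitonin receptor family 1 of 6 tested genes rose and 0 fell: Ramp3, a partner protein of calcitonin-type receptors, went from 0.127 ± 0.16 to 2.12 ± 2.03 CPM (SD, n = 6 each; edgeR adjusted p = 0.0192). Leaving out male non-leukemic replicate 3 gave 2 genes that rose. Among factors by which osteoclasts act on osteoblasts, 1 of 6 tested genes fell and 0 rose. This was Sphk1, which makes sphingosine 1-phosphate, at 163 ± 71.9 and 46.7 ± 13.0 CPM (edgeR adjusted p = 0.00155); without male non-leukemic replicate 3, 1 rose and 1 fell.

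**Figure D4:**
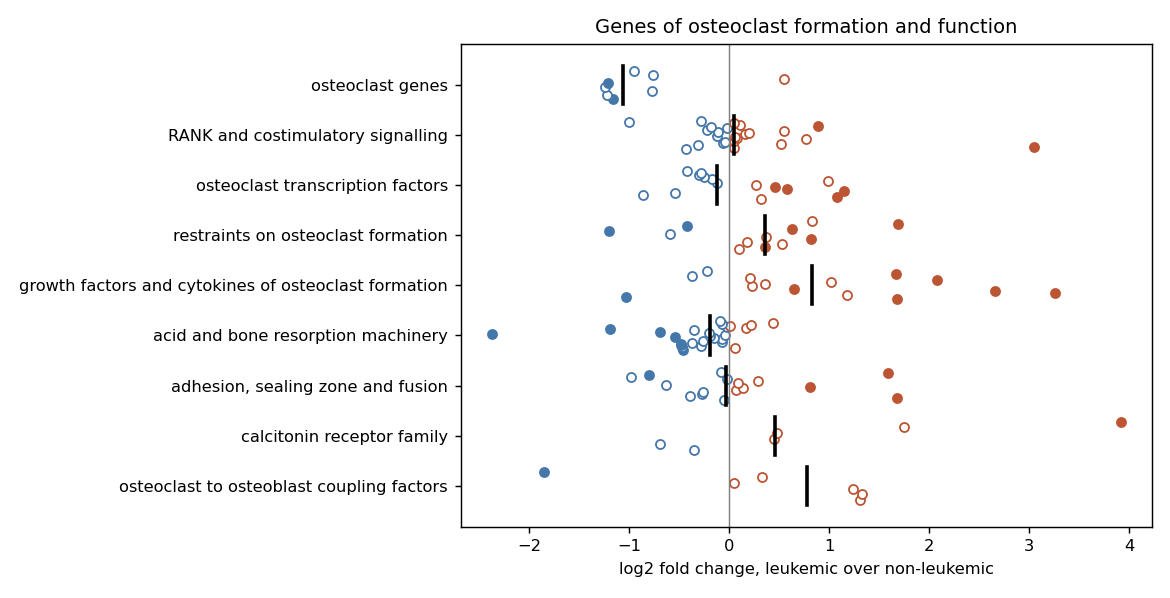
Log2 fold change of leukemic over non-leukemic libraries for every tested gene of the 10-gene set and of 8 further lists; each point is a gene, filled where the edgeR adjusted p was under 0.05, and black bars are list medians. The set has 7 of 8 points below 0 and a median of -1.06. Without male non-leukemic replicate 3, when 10 genes passed the filter, the set median was -0.52. The growth factor and cytokine list has 6 filled points above 0 and a median of 0.83.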

How the data were processed

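The deposited values were raw counts per gene made by the authors, 1 column per library and 56832 entries, not normalized. The submitters' processing notes list STAR 2.7.9a, featureCounts and Subread 2.0.1, fastp 0.23.1, bcl2fastq 2.19.1, DESeq2 1.28.1 under R 4.0.2, and the build GRCm39; their order and settings are not given in the sources used here. Per the labels' protocols, 1 ng of RNA was amplified with a kit that marks neither strand nor molecules. Reads from the opposite strands of overlapping genes therefore cannot be told apart, and how the counting treated them is not given.

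Genes were filtered with filterByExpr over the 4 groups, scaled by TMM and tested with edgeR 4.0.16 (robust quasi-likelihood F test) in R 4.3.3, with p-values adjusted over all 15758 genes by Benjamini-Hochberg. CPM used column totals; log2 CPM for likeness used a prior count of 2 and genes with a mean of at least 3. Alternatives were DESeq2 size factors, DESeq2 1.42.0, limma-voom (limma 3.58.1), no filter, at least 5 CPM in 3 libraries, no sex term, a replicate block, fits of 1 sex and leaving out each library; leaving out the pair of libraries that stood apart was added after the data were seen. In simulated data of 15220 genes for the main comparison, edgeR recovered 47% of 2-fold and 73% of 4-fold changes, and 3.23% of calls were false. The simulation changed far fewer genes than the 2822 called in the real data and held no sex effect. These rates therefore need not hold for the real fit. Within a group, any 2 libraries differed by a chi-square of at least 22.6 per degree of freedom, so none was a duplicate.

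The 10 genes and all lists were chosen with earlier results of these data known. Named genes are the 10, the 4 of each other list with the lowest p, a fixed set of regulators and markers, and the 5 most like Ctsk and Acp5. A gene that this rule names is not reported here. Exon lengths and overlaps came from GENCODE M21 (GRCm38) and promoter sequences from RefSeq (GRCm38.p6).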

Additional observations from a re-analysis of the deposited data

Results flagged for a closer look

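In 8 of 32 groups of 6 libraries examined, the highest or lowest library stood apart from the other 5 by more than 0.625 of the group's range. Independent samples of a single normal distribution give this in about 1 of 20 groups. The groups here share libraries and mix sexes, so that rate is not an expected count for them. Male non-leukemic replicate 3 was the high library among the 6 non-leukemic ones for Ocstamp at 22.0 CPM, Tnfrsf11a at 36.7 CPM, Atp6v0d2 at 51.5 CPM and Nfatc1 at 287 CPM. The same library was high for the summed macrophage markers at 2653 CPM and the summed dendritic cell markers at 473 CPM. Among the 6 leukemic libraries, female replicate 2 was low for the macrophage sum at 327 CPM and high for the summed eosinophil, basophil and mast cell markers at 36153 CPM. The cause was not tested.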

How the results depend on the processing

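Acp5 and Mmp9 stayed lower and called in the comparison of all libraries in all 20 alternatives. Of the 58 named genes called there, 44 kept the call in every alternative and 14 lost it in at least 1. The total number of calls was 2822, and 2108 to 3910 without 1 library; it was 1162 (513 to 2087) in males, 1328 (504 to 1773) in females and 0 (0 to 0) for the interaction. DESeq2 called 2053 genes in males, 2359 in females and 23 for the interaction, and 2 lower genes of the set in females. Without male non-leukemic replicate 3 and female leukemic replicate 1, the counts were 4717 in all, 2728 in males and 2368 in females, and 1 gene of the set was higher in all, 1 higher and 1 lower in males. Without 1 library, the set had 0 to 1 higher and 2 to 3 lower genes in all, and 0 to 1 higher and 0 to 2 lower in males; a fit of only the male libraries gave 1 lower. Same-numbered libraries did not pair: 0 of 18 correlations of their deviations were over 0.1 (-0.11 to 0.08). With the replicate number as a block, 2509 genes were called in all, 932 in males and 1057 in females, and the same numbers of the set were lower, 2, 2 and 1. Reversed log2 fold changes, none called, were as follows. With limma-voom they were 0.060 for Ocstamp in all libraries, 0.12 for Ctsk, 0.82 for Ocstamp and 0.13 for Dcstamp in males, and -0.24 for the Nfatc1 interaction. With the block they were 0.16 for Ctsk, 0.68 for Ocstamp and 0.20 for Dcstamp in males, and -0.15 for the Nfatc1 interaction. Without 1 library, or without the pair that stood apart, the range was -1.08 to 0.50 for Ocstamp, -0.024 to 0.18 for Traf6 and -0.14 to 0.094 for Tcirg1 in all; -0.74 to 0.77 for Ctsk, -0.85 to 1.78 for Ocstamp, -0.50 to 0.98 for Dcstamp and -1.35 to 0.73 for Atp6v0d2 in males; and -0.66 to 0.94 for Tnfrsf11a and -0.79 to 0.40 for Nfatc1 in the interaction. The cause was not tested. Depth limits Calcr and Oscar, which had no count in 10 and 7 of the 12 libraries.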
